A study of Homo sapiens with 6 samples.

Results

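The genes described here are the small nucleolar RNAs (snoRNAs) and the noncoding RNAs whose introns carry them, in RNA-seq libraries of 293T cells, a human embryonic kidney line. A gene was included when its symbol began with SNHG, SNORA, SNORD or SCARNA, or was GAS5, ZFAS1 or EPB41L4A-AS1, and its counts over the 6 libraries summed to at least 20. Members were thus chosen by name and by their summed count, which is given only as a description. Of 61806 genes in the table, 584 had such a name and 68 of these passed the minimum. They fall into 27 noncoding hosts and 41 small RNAs, which are treated as separate classes. The small RNAs comprise 16 named SNORA, 23 named SNORD and 2 named SCARNA. Another 396 of the 584 genes had 0 counts in all libraries, 395 of them small RNAs, and 120 had 1 to 19 counts.

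The cells carried one of a pair of plasmids. The GFP-812 group had 3 libraries of cells given the GFP-812 plasmid, and the GFP group had 3 libraries of cells given the GFP plasmid. GFP is the green fluorescent protein, a common tag, and the meaning of the name GFP-812 is not in the labels. Both groups were 293T cells kept in DMEM with fetal bovine serum and antibiotics, and both were transfected with Lipo2000. The series concerns truncated NEK1 and the making of ribosomal RNA, and the comparison asks how the RNAs of GFP-812 cells differed from those of GFP cells. The time after transfection and the share of cells that took up the plasmid were not stated in the labels. Values per library are given in the order of replicates 1, 2 and 3. NEK1 stood at 562.73, 518.33 and 493.72 FPKM (counts scaled by exonic size and library total) in GFP-812 libraries, against 3.82, 3.99 and 3.91 FPKM in GFP libraries.

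Libraries held 14255148 to 17613814 counts each, and nothing in the labels says whether replicates were separate cultures. Every p-value here therefore reflects the spread between libraries, which may be technical. Of the 7 markers listed for 293T cells, 6 stood above every marker of other cell types in all libraries, VIM at 115.24 to 126.63 and KRT18 at 14.53 to 16.44, while PAX2 stood at 0.34 to 0.7 FPKM. Of the 7 markers of other cell types, PTPRC was at 0 and the highest, COL1A1, reached 1.76 FPKM. One library stood apart within its group. The ribosomal protein genes, 86 in number, took 6.39%, 6.45% and 6.45% of counts in GFP-812 libraries, and 5.90%, 5.70% and 6.44% in GFP libraries. GFP replicate 3 thus lay beside the GFP-812 libraries in this share, and results that rest on it are given with and without it.

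Most human snoRNAs are cut out of introns after splicing, so the gene that carries one also makes a spliced, polyadenylated RNA. Box C/D snoRNAs, named SNORD, guide 2′-O-methylation, and box H/ACA snoRNAs, named SNORA, guide pseudouridylation, mostly of ribosomal RNA. SCARNA genes encode the related guides of Cajal bodies. In some host genes the spliced RNA encodes a protein, often of the ribosome, and in others, such as GAS5 and SNHG1, it has no long reading frame and is known to be degraded by nonsense-mediated decay when translated. Host RNAs and mature snoRNAs are therefore separate products of one transcript with separate fates. The mature snoRNA has no poly(A) tail, and these libraries were made from RNA held by its tail on oligo(dT) beads.

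The small RNAs on which the later values turn are shown first, as GENCODE 29 transcripts on GRCh38 written 5′ to 3′ as DNA. In the SNORD genes the capitals mark a C box (TGATGA) within the first 20 bases and a D box (CTGA) within the last 20. In the SNORA genes they mark the ACA trinucleotide within the last 6 bases. SNORD83A (chr22:39315213-39315307, minus strand) had the smallest p of the class, SNORD19C (chr3:52691378-52691453, plus strand) and SNORD19 (chr3:52689248-52689315, plus strand) lie in the same gene, SNORD101 (chr6:132815307-132815379, plus strand) lies in a ribosomal protein gene, and SNORA73B (chr1:28508559-28508762, plus strand) and SNORA71B (chr20:38425083-38425354, minus strand, where the table's gene is longer than the transcript shown) lie in noncoding hosts.
SNORD83A: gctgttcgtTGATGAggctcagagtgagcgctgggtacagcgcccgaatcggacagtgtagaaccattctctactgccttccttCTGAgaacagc
SNORD19C: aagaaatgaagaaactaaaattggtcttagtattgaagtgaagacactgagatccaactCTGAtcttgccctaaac
SNORD19: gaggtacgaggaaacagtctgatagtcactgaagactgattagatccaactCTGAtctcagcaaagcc
SNORD101: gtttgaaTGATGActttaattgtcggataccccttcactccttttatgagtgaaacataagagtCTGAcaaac
SNORA73B: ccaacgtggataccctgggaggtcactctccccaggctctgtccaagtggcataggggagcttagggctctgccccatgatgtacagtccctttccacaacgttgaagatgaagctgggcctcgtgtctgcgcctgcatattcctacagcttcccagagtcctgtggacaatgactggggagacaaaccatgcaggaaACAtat
SNORA71B: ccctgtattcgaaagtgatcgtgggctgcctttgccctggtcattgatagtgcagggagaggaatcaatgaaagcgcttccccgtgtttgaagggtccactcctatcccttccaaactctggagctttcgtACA
All 41 small RNAs had the same position in GENCODE 29 as in the table. Among the 23 SNORD members, 17 (73.9%) held the C box, against 192 of 278 (69.1%) of all SNORD genes of GENCODE 29, and 22 (95.7%) held the D box, against 268 of 278 (96.4%). Among the 16 SNORA members, 15 (93.8%) held ACA near the end, against 133 of 147 (90.5%). Members thus held these boxes about as often as all genes of their kind, and a missing match says only that these exact letters were not in the window.

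The first bases of several hosts are shown for the same reason. Some hosts and nearly all ribosomal protein genes are known to start with a 5′ terminal oligopyrimidine tract (TOP), a C followed by pyrimidines through which growth signals control translation. Each line gives 20 bases before and 20 from the start that RefSeq annotates on GRCh38.p14, with the pyrimidine tract in capitals where the first base was a C followed by at least 4 pyrimidines. The first 6 hosts had such a start. GAS5, SNHG1, SNHG3 and SNHG17, the hosts with the values described first below, did not at this annotated start.
SNHG4: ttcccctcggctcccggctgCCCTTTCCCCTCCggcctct
SNHG12: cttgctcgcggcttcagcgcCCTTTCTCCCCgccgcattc
SNHG19: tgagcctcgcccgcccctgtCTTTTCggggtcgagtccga
SNHG32: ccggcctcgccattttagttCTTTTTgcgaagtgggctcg
SNHG5: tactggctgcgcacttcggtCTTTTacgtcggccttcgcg
ZFAS1: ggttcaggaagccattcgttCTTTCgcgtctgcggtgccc
GAS5: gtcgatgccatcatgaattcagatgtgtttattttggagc
SNHG1: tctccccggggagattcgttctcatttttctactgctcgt
SNHG3: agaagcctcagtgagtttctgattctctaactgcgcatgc
SNHG17: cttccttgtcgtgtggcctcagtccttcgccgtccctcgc
The tract was found in 6 of the 23 hosts with a RefSeq start (26.1%), in 44 of 69 ribosomal protein genes (63.8%) and in 1429 of 35116 RefSeq starts of all genes (4.07%). The tract was sought on the strand of the gene alone. Fitted log2 fold changes of the 6 hosts with the tract had a median of 0.05 and ran from -0.18 to 0.13. Those of the 15 other hosts with a start that were tested had a median of 0.11 and ran from -0.22 to 0.20, so the ranges overlapped. Hosts were sorted by the annotated start alone. For GAS5, SNHG3, SNHG4 and SNHG14 that start lay outside the counted gene. Annotated starts gave the tract in only 63.8% of ribosomal protein genes, so hosts with a tract may be among the others. No difference between the kinds of host is drawn from these medians.

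The hosts carried nearly all of the signal. They summed to 132822 counts over the 6 libraries, and the 41 small RNAs to 2736. GAS5, a growth arrest transcript, SNHG29 and SNHG1 together held 44.2% of the host counts. By level, GAS5 (ENSG00000234741, hg38 chromosome 1, 173858559 to 173868882, minus strand) and SNHG1 (ENSG00000255717, chromosome 11, 62851978 to 62855953, minus strand) stood highest. GAS5 averaged 47.0 ± 0.44 FPKM in GFP-812 libraries and 44.0 ± 1.92 FPKM in GFP libraries (SD, n = 3 each), and SNHG1 averaged 46.6 ± 0.67 FPKM in GFP-812 libraries and 43.3 ± 2.15 FPKM in GFP libraries (SD, n = 3 each). Those 2 hosts differed from each other by less than the spread of the GFP libraries. Next came SNHG29, SNHG32, SNHG3 and SNHG6, and 24 of the 27 hosts had a mean of at least 1 FPKM over the 6 libraries. At the low end, SNHG14, the long transcript of the imprinted region on chromosome 15, had 35 counts in all and was listed at 0 FPKM in every library.

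**Figure D1:**
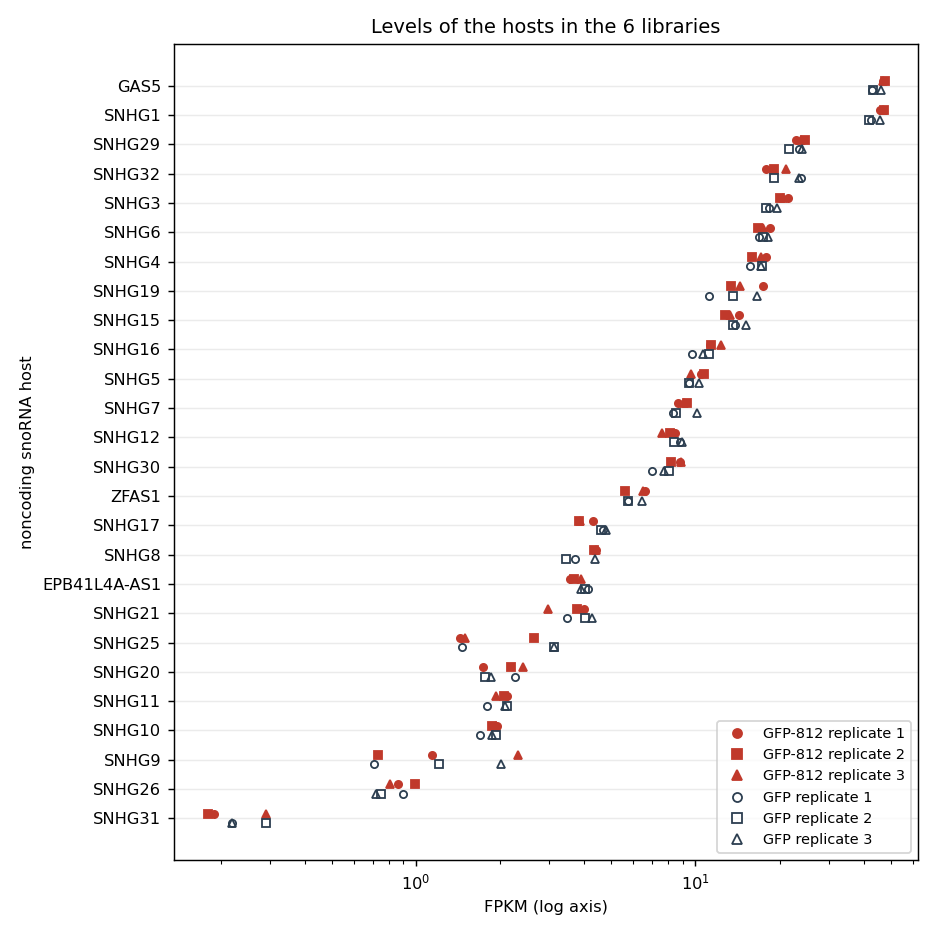
FPKM (log axis) of the 26 hosts with a mean above 0.05 FPKM in each of the 6 libraries; filled red symbols are GFP-812 libraries and open dark symbols GFP libraries, with 1 shape per replicate number. GAS5 and SNHG1 stand near 45 FPKM, and only SNHG17 has every GFP-812 point below every GFP point.

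One host of the 25 tested changed in GFP-812 cells by edgeR's quasi-likelihood test at an adjusted p under 0.05, and it fell. Among all 16834 genes tested, 3.84% passed this threshold, 1.18% higher and 2.67% lower, so the share of hosts that passed was near the background. The host was SNHG17 (ENSG00000196756, chromosome 20, 38419638 to 38435409, minus strand), the host of the SNORA71 small RNAs. Its level was 4.29, 3.84 and 3.86 FPKM in GFP-812 libraries, and 4.65, 4.60 and 4.80 FPKM in GFP libraries. Every GFP-812 library lay below every GFP library, and GFP-812 replicate 1 lay nearest to the GFP group. The fitted log2 fold change was -0.22 (SE 0.0637, 95% interval -0.35 to -0.09, edgeR adjusted p = 0.0361), a 0.859-fold level. The call did not survive the loss of most single libraries. edgeR's adjusted p was 0.0171 without GFP-812 replicate 1, but 0.242 and 0.217 on leaving out GFP-812 replicates 2 and 3 in turn. It was 0.113, 0.0521 and 0.0565 on leaving out each GFP library in turn, with a log2 fold change of -0.28 to -0.19 throughout. DESeq2 gave an adjusted p of 0.0707, and limma on log2(FPKM + 1) 0.236.

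A small group of hosts stood slightly higher in GFP-812 cells without passing the threshold. Of the 25 tested, 5 had every GFP-812 library above every GFP library, namely GAS5, SNHG1, SNHG3, SNHG16 and SNHG30, and 1 had the reverse, SNHG17. Over all genes tested, 8.16% had all GFP-812 libraries higher and 12.4% all lower. GAS5 had 46.78, 47.49 and 46.68 FPKM in GFP-812 libraries, and 42.71, 43.02 and 46.18 FPKM in GFP libraries. SNHG1, which carries a cluster of SNORD genes from SNORD22 to SNORD30, had 45.91, 47.25 and 46.72 FPKM in GFP-812 libraries, and 42.42, 41.72 and 45.74 FPKM in GFP libraries. In both genes GFP replicate 3 was the highest GFP library and came within 1 FPKM of the lowest GFP-812 library. The log2 fold change was 0.11 for GAS5 (95% interval 0.02 to 0.19, edgeR adjusted p = 0.145) and 0.12 for SNHG1 (0.03 to 0.21, adjusted p = 0.123).

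SNHG3, which carries SNORA73A and SNORA73B, had 21.35, 20.05 and 20.60 FPKM in GFP-812 libraries, and 18.39, 17.92 and 19.54 FPKM in GFP libraries. SNHG16, which carries the SNORD1 genes, had 11.23, 11.38 and 12.29 FPKM in GFP-812 libraries, and 9.73, 11.20 and 10.61 FPKM in GFP libraries. The groups did not overlap in either gene, though SNHG16 came close, with GFP replicate 2 just below the lowest GFP-812 library. Their log2 fold changes were both 0.16 (edgeR adjusted p = 0.0811 for SNHG3 and 0.129 for SNHG16). SNHG3 lies over the protein-coding gene RCC1 on the same strand, so reads could be split between them, and RCC1, the nucleotide exchange factor of the GTPase Ran, had a fitted log2 fold change of -0.10 (adjusted p = 0.216).

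SNHG8 and SNHG30, the hosts of SNORA24 and SNORD7, had the highest fitted values among hosts, both with a log2 fold change of 0.20. SNHG8 had 4.39, 4.32 and 4.40 FPKM in GFP-812 libraries, and 3.72, 3.44 and 4.37 FPKM in GFP libraries, so that GFP replicate 3 lay within the GFP-812 range (edgeR adjusted p = 0.213). SNHG30 had 8.79, 8.18 and 8.87 FPKM in GFP-812 libraries, and 7.0, 8.02 and 7.69 FPKM in GFP libraries (adjusted p = 0.394). The intervals ran from 0.03 to 0.37 for SNHG8 and from -0.03 to 0.43 for SNHG30. Neither gene's interval allowed a doubling.

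SNHG32 lay on the other side. This host of SNORD48 and SNORD52 had 17.92, 19.13 and 21.06 FPKM in GFP-812 libraries, and 23.83, 19.12 and 23.54 FPKM in GFP libraries. GFP replicate 2 sat among the GFP-812 libraries, and the others of its group lay above them. The log2 fold change was -0.18 (95% interval -0.34 to -0.02, edgeR adjusted p = 0.221), and without GFP replicate 2 it was -0.28 with an adjusted p of 0.0414. The well-expressed hosts SNHG29 and SNHG6 were close to level, with 22.97, 24.71 and 23.78 FPKM for SNHG29 in GFP-812 libraries and 23.52, 21.60 and 24.11 FPKM in GFP libraries. For SNHG6 the values were 18.46, 16.80 and 17.46 FPKM in GFP-812 libraries and 16.89, 17.39 and 18.13 FPKM in GFP libraries. Groups overlapped in both genes, and the log2 fold changes were 0.06 for SNHG29 and 0.02 for SNHG6 (edgeR adjusted p = 0.547 and 0.926).

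**Figure D2:**
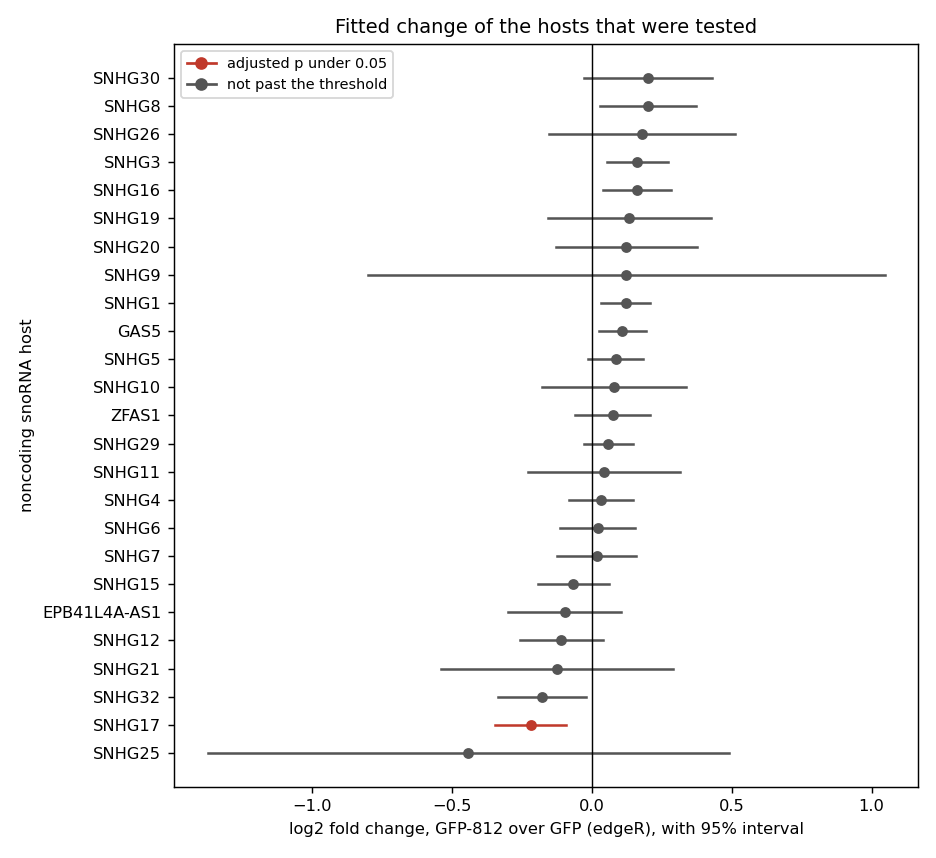
Fitted log2 fold change (GFP-812 over GFP, edgeR) of the 25 tested hosts, with 95% intervals as lines; the red host passed an adjusted p under 0.05. SNHG17 at -0.22 is the red one, 18 of the 25 points lie above 0, and SNHG25 and SNHG9, with 72 and 81 counts in all, have the widest intervals.

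As a class, the hosts were near the level of other genes. Fitted log2 fold changes had a median of 0.07 over the 25 hosts (quartiles -0.07 and 0.12) and of 0.01 over all genes tested (quartiles -0.10 and 0.11). Above 0 lay 18 of 25 hosts, against 51.8% of all genes tested. At an unadjusted p under 0.05, 5 hosts were higher and 2 lower, where 7.24% of all genes were higher and 8.9% lower. DESeq2 had 5 hosts in either direction, beside 5.23% of 35719 genes, and limma 3, beside 13.7% of 16834 genes. The larger set of DESeq2 held genes of low counts that edgeR and limma left out, so its share is not like theirs. For 21 of the 25 hosts the 95% interval lay within 0.5 of 0 on the log2 scale. The host median without GFP replicate 1 was 0.0022, and without GFP replicate 3 it was 0.09.

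GFP replicate 3 resembled the GFP-812 libraries in its hosts as it did in its ribosomal protein genes. The 27 hosts summed to 1415, 1409 and 1408 CPM (counts scaled to a common library total) in GFP-812 libraries, and to 1336, 1323 and 1432 CPM in GFP libraries. The groups averaged 1410 ± 3.54 and 1364 ± 59.9 CPM (GFP-812 and GFP, SD, n = 3 each), and they overlapped because GFP replicate 3 was the highest of all 6. When GFP replicate 3 was left out, 4 hosts rose past the threshold by edgeR. These were GAS5 (log2 fold change 0.14, adjusted p = 0.0135), SNHG1 (0.16, 0.00936), SNHG3 (0.20, 0.0196) and SNHG8 (0.30, 0.0301). Without it SNHG17 no longer passed, and 507 genes rose and 810 fell in the whole table, against 198 and 449 with all 6 libraries. The ribosomal protein share moved with these host levels, and its part in them was not tested.

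**Figure D3:**
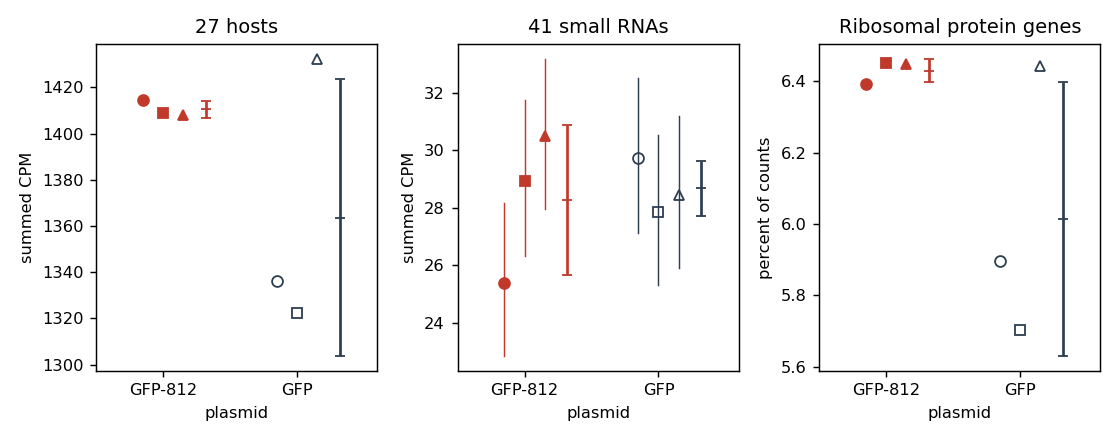
Summed CPM of the 27 hosts (left), summed CPM of the 41 small RNAs (middle) and percent of counts in 86 ribosomal protein genes (right) in each library, with 1 shape per replicate number, the mean ± SD of 3 libraries beside the points and axes that do not start at 0; thin lines in the middle are 95% Poisson intervals for counting error alone. GFP replicate 3 (open triangle) lies with the GFP-812 libraries at left and right, and the groups overlap in the middle panel.

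None of the 17 small RNAs tested passed the threshold by edgeR, DESeq2 or limma, where 3.84% of all genes passed by edgeR. At an unadjusted p under 0.05, edgeR and DESeq2 each had 1 of them and limma had 3. The shares of all genes tested were 16.1% by edgeR, 5.23% by DESeq2, which tested 35719 genes, and 13.7% by limma. Their counts were far lower than those of hosts. Tested small RNAs had 46 to 402 counts over the 6 libraries, with a median of 86, and tested hosts a median of 3594. The 95% intervals extended 0.40 to 1.21 log2 units either side of the fitted value (median 0.85), and 0.08 to 0.93 for hosts (median 0.15). None of the 17 intervals lay within 0.5 of 0, so the data leave room for a change of at least that size in each small RNA. The other 24 small RNAs, with 20 to 55 counts over the 6 libraries, did not pass the edgeR filter on low counts.

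Summed over the class, reads counted on small RNA genes differed between the groups by less than the spread of the libraries. Of the 36 members inside a gene, only 2 lay over its exons as matched in GENCODE 29, and the libraries were selected by poly(A) tail. Reads of a mature small RNA and of unspliced RNA of the gene around it cannot be told apart in these counts. The 41 members summed to 25.4, 28.9 and 30.5 CPM in GFP-812 libraries, and to 29.7, 27.8 and 28.5 CPM in GFP libraries. The groups averaged 28.3 ± 2.61 and 28.7 ± 0.963 CPM (GFP-812 and GFP, SD, n = 3 each), and GFP-812 replicate 1 was the lowest and GFP-812 replicate 3 the highest of the 6. Reads of SNORD genes averaged 17.5 ± 1.83 CPM in GFP-812 libraries and 16.9 ± 1.13 CPM in GFP libraries, and those of SNORA genes 10.2 ± 1.28 CPM in GFP-812 libraries and 11.2 ± 0.149 CPM in GFP libraries (SD, n = 3 each). Fitted log2 fold changes of the 17 ranged from -0.56 to 1.33, with a median of 0.08, and 10 of 17 lay above 0. That median changed sign to -0.01 when the third library of either group was left out. A list of 17 other short RNAs without a tail, among them RN7SL1, matched 18 gene entries, with RMRP entered more than once. Those entries summed to 4.28, 3.71 and 3.12 CPM in GFP-812 libraries and to 6.38, 2.55 and 2.99 CPM in GFP libraries. Only 7 of the 18 entries had any count, and 1, RN7SL1, was tested. Nearly all of the counts lay in RN7SL1, with 58, 55 and 55 in GFP-812 libraries and 97, 34 and 45 in GFP libraries. Whether these reads came from tailless RNA was not tested.

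SNORD83A, a box C/D snoRNA in an intron of the ribosomal protein gene RPL3, had the smallest p. It had 15, 16 and 11 counts in GFP-812 libraries, or 1.05, 1.02 and 0.62 CPM, and 4, 5 and 8 counts in GFP libraries, or 0.25, 0.31 and 0.50 CPM. All GFP-812 libraries were higher, and the third library of each group lay closest to the other group. The fitted log2 fold change was 1.33 (95% interval 0.31 to 2.36, edgeR adjusted p = 0.144), which did not pass. RPL3, which holds it, had a log2 fold change of 0.11 (adjusted p = 0.0587).

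SNORD19C and SNORD19 both lie in GNL3, which encodes the nucleolar GTPase nucleostemin. SNORD19C had 17, 31 and 32 counts in GFP-812 libraries, and 17, 14 and 22 counts in GFP libraries, and the groups overlapped through GFP-812 replicate 1. SNORD19 had 16, 16 and 13 counts in GFP-812 libraries, and 12, 15 and 11 counts in GFP libraries. SNORD69, the third member in GNL3, had 1, 15 and 9 counts in GFP-812 libraries, against 7, 1 and 11 counts in GFP libraries, and was not tested. The 3 neighbours did not share an order of libraries: SNORD69 had 1 count in GFP-812 replicate 1, where SNORD19 had its highest CPM. The log2 fold changes were 0.62 for SNORD19C and 0.29 for SNORD19 (edgeR adjusted p = 0.40 and 0.804), and 0.07 for GNL3 itself (adjusted p = 0.365).

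SNORA71B and SNORA73B lay in noncoding hosts described above. SNORA71B, in SNHG17 and of a family that guides pseudouridylation of ribosomal RNA, had 10, 13 and 29 counts in GFP-812 libraries, and 34, 24 and 20 counts in GFP libraries. The GFP-812 libraries spanned the GFP range from below to within, and the log2 fold change of -0.56 (95% interval -1.31 to 0.18) did not pass (edgeR adjusted p = 0.471). SNORA73B, whose family takes part in the processing of ribosomal RNA precursors and not in its modification, had 24, 17 and 27 counts in GFP-812 libraries, and 35, 29 and 31 counts in GFP libraries. As CPM, every GFP-812 library was below every GFP library, and the log2 fold change was -0.44 (95% interval -1.10 to 0.21, adjusted p = 0.535). Its noncoding host SNHG3 had a fitted value of 0.16 and the coding gene RCC1, which also spans it, -0.10.

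The member with the most reads was SNORD17, in SNX5, a sorting nexin. It had 51, 63 and 68 counts in GFP-812 libraries, and 88, 71 and 61 counts in GFP libraries, and the groups overlapped (log2 fold change -0.24, edgeR adjusted p = 0.603). SNORD3A and SNORD14A belong to families that act in the cleavage of the ribosomal RNA precursor. SNORD3A, which is transcribed from its own promoter, had 17, 7 and 20 counts in GFP-812 libraries, and 27, 13 and 16 counts in GFP libraries. SNORD14A, in RPS13, had 12, 24 and 28 counts in GFP-812 libraries, and 22, 26 and 15 counts in GFP libraries. Libraries of both groups were interleaved in these 2 genes, whose log2 fold changes were -0.31 and 0.05 (adjusted p = 0.775 and 0.970). RPS12 holds 3 members. SNORA33 had 13, 19 and 31 counts in GFP-812 libraries against 20, 17 and 27 counts in GFP libraries, SNORD101 15, 11 and 18 against 16, 13 and 13, and the untested SNORD100 2, 11 and 9 against 4, 1 and 5.

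**Figure D4:**
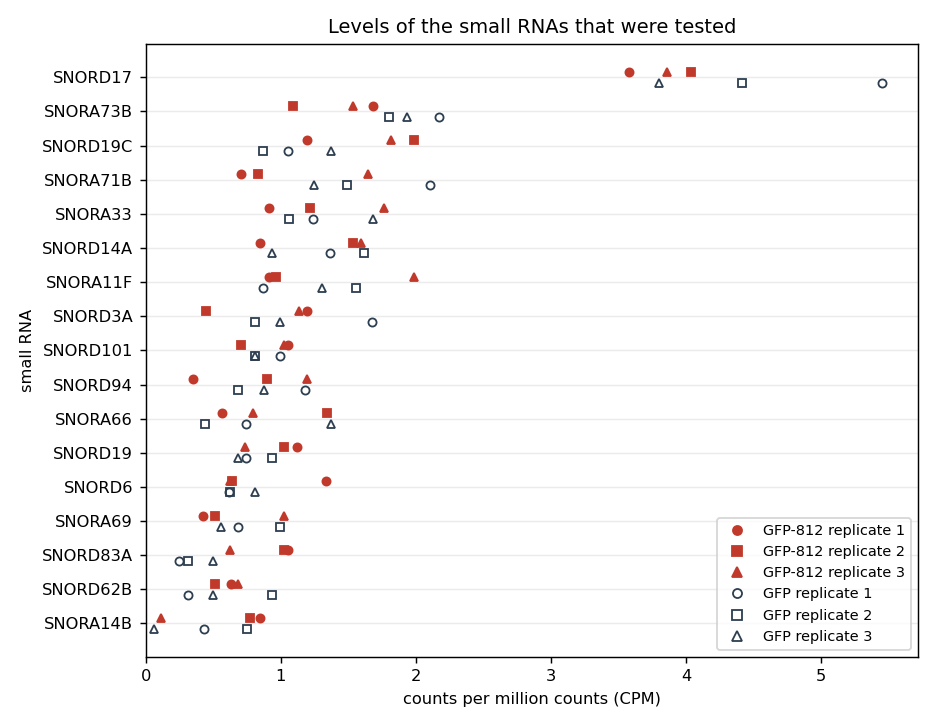
CPM of the 17 tested small RNAs in each of the 6 libraries, ordered by summed count from SNORD17 (402 counts) down to SNORA14B (46); filled red symbols are GFP-812 libraries and open dark symbols GFP libraries, with 1 shape per replicate number. Groups are interleaved in most rows; SNORD83A has all GFP-812 points higher and SNORA73B all lower.

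The count minimum that chose the members cut through a continuous run of low values. SNORA53, just inside, had 2, 2 and 2 counts in GFP-812 libraries, and 5, 7 and 2 in GFP libraries. SNORA5C, also just inside, had 6, 3 and 5 counts in GFP-812 libraries, and 1, 3 and 2 in GFP libraries. Just outside were SNORD15A, with 7, 3 and 5 counts in GFP-812 libraries and 1, 1 and 2 in GFP libraries, and SNORD73B, with 2, 2 and 2 in GFP-812 libraries and 7, 2 and 4 in GFP libraries.

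The position of the small RNAs was set beside their counts. Of the 41 members, 31 lay inside a protein-coding gene of the same strand and 4 inside a noncoding host (SNORA71B, SNORA73B, SNORD99 and SNORD12B), 1 of which, SNORA73B, lay in both. By the gene types used here, the other 7 lay in neither. Of these, 2 lay inside another gene of their strand, SNORD62B in PRRC2B and SNORA22 in CCT6P1. Types were matched by gene identifier, and a gene without a match was not classed as protein-coding. PRRC2B was not classed so, whether for its type or for want of a match, and the 31 leave out SNORD62B. The noncoding hosts held 136 small RNA genes within their spans, of which 125 had 0 counts in all libraries. Together those 136, which lay in 26 of the hosts, had 376 counts, beside 111347 for the 26 hosts around them. The 7 inside SNHG1 had none, nor did the 84 SNORD genes inside SNHG14. The small RNAs of GAS5 were not analysed here. Most of the counts were in SNORA73B, with 163 inside SNHG3, and SNORA71B, with 130 inside SNHG17, and the other 83 were spread over 7 hosts.

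Small RNAs annotated over an exon of another gene seldom had reads. By GENCODE 29, 166 small RNA genes of the table overlapped an exon of a gene on their strand that contained them, and 15 of these (9.04%) had any count. Of the 297 inside such a gene but off its exons, 121 (40.7%) had a count. Within noncoding hosts the same shares were 1 of 49 (2.04%) and 10 of 87 (11.5%). These shares are lowered by SNHG14, a host with 35 counts in all, which held 84 of the 136 genes inside noncoding hosts. None of those 84 had a count. Only 2 of the 36 members inside a gene lay over an exon, SNORA53 in SLC25A3 and SNORA69 in RPL39. A gene whose identifier had no match in GENCODE 29 counted as having no exons, so small RNAs in it were placed off exons. HTSeq in its usual modes leaves out a read that lies over exons of 2 genes, and which mode was used is not known here. The part of this in the missing counts was not tested.

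The protein-coding genes that hold members moved in both directions. Of 26 tested, 2 rose, both ribosomal protein genes, and 5 fell, none of them one, by edgeR, beside 1.18% and 2.67% of all genes, with a median log2 fold change of -0.05. The fallen genes by p were CEP295, a centriole protein, PRPF39, a splicing factor, WDR43, a factor of small ribosomal subunit assembly, TAF1D, a subunit of the RNA polymerase I selectivity factor, and CHD8. CEP295, which holds SCARNA9, had 7.87, 7.70 and 8.14 FPKM in GFP-812 libraries, and 10.61, 10.19 and 9.06 FPKM in GFP libraries. All GFP-812 libraries were lower, and the log2 fold change was -0.32 (adjusted p = 0.000148). TAF1D, which holds SNORD6, had 32.22, 31.92 and 31.55 FPKM in GFP-812 libraries, and 36.95, 36.83 and 35.51 FPKM in GFP libraries. Again no library overlapped (log2 fold change -0.18, adjusted p = 0.00321). PRPF39 and WDR43 had log2 fold changes of -0.22 and -0.20, and CHD8 of -0.17. PRRC2B, which holds SNORD62B, was not classed as protein-coding by the matching of types described above and is not in these counts. It had a log2 fold change of -0.17 (edgeR adjusted p = 0.00991) and is named after its values were seen.

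The risen genes were RPS3 (log2 fold change 0.14) and RPL39 (0.13). RPS3, RPL39 and CHD8 are named because the counts are small, after their values were seen. Both counts moved with single libraries. The number of risen genes was 9 without GFP replicate 3, 1 on leaving out GFP-812 replicate 1, and 0 when any of the other 4 libraries was left out. The number of fallen genes dropped to 1 when GFP-812 replicate 2 was left out, to 2 for GFP-812 replicate 3 and to 3 for GFP replicate 1. Limma called none of the 26. RPS3 and RPL39 are themselves counted in the ribosomal protein share given above per library. That this share moved with them is therefore in part built in, and nothing is drawn from it.

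Small RNAs and the genes that hold them could be set side by side in 16 pairs, covering 15 tested small RNAs. In 11 pairs the fitted values had the same sign and in 5 opposite signs. SNORD6 was fitted at 0.33 inside TAF1D, which fell, and SNORA69 at -0.15 inside RPL39, which rose. With intervals as wide as those above, the sign of most small RNAs was not determined, and pairs that share a holder are not independent.

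Proteins of the snoRNA particles were close to level. None of the 9 core proteins passed by edgeR, beside 3.84% of all genes, and 3 had an unadjusted p under 0.05, beside 16.1%. DESeq2 called 1 higher and 1 lower, beside 1.29% of the 35719 genes it was given in either direction. That larger set held genes of low counts that edgeR left out, so its share is not like the 3.84%. The median log2 fold change was 0.01. Closest to the threshold was NOP58, given below, which was fitted lower. Closest among those fitted higher were NHP2, of the H/ACA particle, and fibrillarin (FBL), the methyltransferase of the C/D particle. NHP2 had 89.26, 89.28 and 87.97 FPKM in GFP-812 libraries, and 80.20, 77.31 and 84.62 FPKM in GFP libraries. FBL had 165.89, 177.69 and 178.23 FPKM in GFP-812 libraries, and 158.27, 155.23 and 168.73 FPKM in GFP libraries. In NHP2 the groups did not overlap, and in FBL GFP-812 replicate 1 lay below GFP replicate 3. Their log2 fold changes were 0.15 and 0.13 (edgeR adjusted p = 0.0577 and 0.0586), and both genes are named after their values were seen. NOP58, a C/D core protein whose gene holds SNORD11 and SNORD70, had 103.94, 103.91 and 99.85 FPKM in GFP-812 libraries, and 117.30, 107.69 and 113.82 FPKM in GFP libraries. No library overlapped, and its log2 fold change was -0.13 (adjusted p = 0.0574). Without GFP replicate 2 or 3 it passed, and without GFP replicate 3 2 core proteins passed as higher.

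Among 22 factors of snoRNA particle assembly and processing, 1 fell and none rose by edgeR, near the 2.67% and 1.18% of all genes, with a median log2 fold change of -0.06. The fallen gene was ZNHIT6, an assembly factor of box C/D particles, with 16.87, 15.59 and 15.84 FPKM in GFP-812 libraries, and 19.24, 17.82 and 18.04 FPKM in GFP libraries. The groups were separate, at a log2 fold change of -0.18 (adjusted p = 0.0303). The call was lost on leaving out GFP-812 replicate 2, GFP-812 replicate 3 or GFP replicate 1, and 3 factors fell when GFP replicate 3 was omitted.

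Factors of nonsense-mediated decay, the pathway known to degrade several host RNAs, had a lower median. Of 19 tested, 3 fell and 0 rose by edgeR, beside 2.67% and 1.18% of all genes, and the median log2 fold change was -0.11. At an unadjusted p under 0.05 there were 9, all lower, beside 8.9% of all genes lower. SMG5, which recruits decay enzymes, had 20.66, 21.20 and 20.33 FPKM in GFP-812 libraries, and 24.97, 23.74 and 23.66 FPKM in GFP libraries. UPF1, the central helicase, had 11.39, 10.81 and 10.98 FPKM in GFP-812 libraries, and 12.50, 12.74 and 12.62 FPKM in GFP libraries. The groups were separate in both genes and in NBAS. Their log2 fold changes were -0.21 for SMG5, -0.18 for UPF1 and -0.23 for NBAS (edgeR adjusted p = 0.00522, 0.0267 and 0.0302). The number that fell was 8 when GFP replicate 3 was omitted and 1 when GFP replicate 2 was. It was 2 on leaving out GFP-812 replicate 1 or GFP-812 replicate 2, and 0 on leaving out GFP-812 replicate 3 or GFP replicate 1.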

How the data were processed

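RNA was measured in 6 poly(A)-selected libraries, 3 per group by the sample titles. The submitters' processing notes name HISAT2 2.2.1, HTSeq 0.6.1, cutadapt 1.9.1 and FastQC 0.10.1 with hg38. Each of strand setting, counting mode and annotation release is not given in the sources used here, so reads of overlapping genes, of antisense partners and of near-identical snoRNA copies may be split or left out. The authors deposited raw counts per gene and, per the file headers, FPKM. CPM were computed here from the counts and library totals. edgeR 4.0.16 in R 4.3.3 (quasi-likelihood test, filterByExpr, TMM, group alone, Benjamini-Hochberg over 16834 genes, threshold 0.05) was the test, and it was tested on simulated data. A fold is GFP-812 over GFP; standard errors come from the F statistic. DESeq2 1.42.0 and limma 3.58.1 were alternatives, with other filters, scalings and pseudocounts, a replicate block and each library left out. Precision is limited by counts per gene; intervals on summed small RNA counts cover counting error only. Small RNA sequences, gene types and exons came from GENCODE 29 (GRCh38) and host starts from RefSeq (GRCh38.p14), 23 of 27 hosts matching. The members, lists and naming rule were chosen with earlier results of these data known. The rule took NEK1; members past the threshold; the 8 hosts and 6 small RNAs of smallest p; the 6 hosts of highest FPKM and 6 small RNAs of highest count; genes holding 2 or more members, with those members; the members on either side of the count minimum; and up to 4 changed genes of each list.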

Additional observations from a re-analysis of the deposited data

How the results depend on the processing

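No result changed direction while past the threshold. By DESeq2, 119 genes were higher in the whole table, 0 hosts were lower, and 1 snoRNA core protein was higher and 1 lower. With total counts as the sole scaling, 1 core protein, 3 assembly factors and 5 decay factors were lower. With genes of a summed count of at least 20 tested, 0 hosts were lower. Limma called 3 genes higher and 1 lower with a pseudocount of 1, and 2 and 2 with 0.1, and at both it called 0 hosts, 0 genes that hold small RNAs, 0 assembly factors and 0 decay factors. The replicate numbers did not pair the libraries (correlations of same-numbered deviations 0.03, -0.01 and 0.01); with the replicate block, 266 genes were higher and 511 lower, 4 genes that hold small RNAs were higher, 2 core proteins higher and 1 lower, and 2 assembly factors lower, while SNHG17 remained past the threshold (adjusted p = 0.0229).

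Leaving out each library in turn gave 62 to 507 genes higher and 147 to 810 lower, 0 to 4 hosts higher and 0 to 1 lower, and a host median of 0.0022 to 0.0898. Among genes that hold small RNAs, 0 to 9 were higher and 1 to 7 lower. Core proteins were higher in 0 to 2 and lower in 0 to 1 cases, assembly factors lower in 0 to 3 and decay factors lower in 0 to 8. The small RNA median ran from -0.0115 to 0.1622, and small RNAs past the threshold were 0 under every alternative run. The causes were not tested. Depth limits small RNAs most, with a median of 86 counts over 6 libraries in those tested.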
